A study of Mus musculus with 3 samples.

Results

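The nuclear-encoded genes of oxidative phosphorylation were described in 3 populations sorted from differentiating mouse embryonic stem cells. Members were the protein-coding genes whose symbols begin Ndufa, Ndufb, Ndufc, Ndufs or Ndufv with a number, Uqcr, Cox4 to Cox8 or Atp5a to Atp5l, or name one of the 4 succinate dehydrogenase subunits. This gave 82 of the 39179 genes of the table, with 37 in complex I, 4 in complex II, 8 in complex III, 18 in complex IV and 15 in complex V, sorted here by symbol. The stem cells carried a Contactin2:eGFP reporter (Cntn2 marks the conducting Purkinje cells of the heart) and a lentiviral aMHC:mCherry reporter (under the Myh6 promoter, from a heart muscle myosin gene). All cells received Sodium Nitroprusside, a nitric oxide donor, at day 4 of differentiation and were sorted at day 25. GFP cells were positive for eGFP with dim mCherry, MHC cells were positive for mCherry, and NEG cells were negative for both reporters. No untreated cells and no other cell line were compared. With 1 library per population there is no replicate check of any difference, and p-values are not given.

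Oxidative phosphorylation makes most of the ATP of working heart muscle. Complexes I and II pass electrons from NADH and succinate to ubiquinone, complex III passes them to cytochrome c, complex IV (cytochrome c oxidase) passes them to oxygen, and complex V (ATP synthase) uses the resulting proton gradient to make ATP. Most subunits come from single genes used in every tissue, but some cytochrome oxidase subunits exist as a general form and a form restricted to heart and skeletal muscle, and a few isoforms are restricted to other tissues or conditions. The mitochondrial genome encodes further subunits. Its 37 genes were listed at 0 reads in each library, so those subunits are not analysed here.

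Total recovered reads were 52109065 (GFP), 52826956 (MHC) and 47289405 (NEG). Values are read counts per gene divided by the authors' size factor of the library. These normalised read counts are meant wherever a gene's number in a library has no other unit. Exact 95% intervals (Clopper-Pearson) were computed on the reads of 1 library per population and reflect counting error alone. No molecular identifiers are named for these libraries, so copies of 1 molecule may count as separate reads and the intervals may be too narrow. A gene is called higher or lower when log2(value + 1) differs by at least 2-fold, provided the larger value reaches 20. This is a rule of size and no test. Heart muscle markers, which include the reporter gene Myh6, followed the mCherry reporter. Their 12 genes summed to 16470 in GFP, against 324304 in MHC and 11348 in NEG, and in GFP 11 of the 12 were lower than in MHC. Epicardial and mesothelial markers were highest in GFP, with sums over 7 genes of 158341 in GFP, against 5810 in MHC and 5518 in NEG. The Purkinje, fibroblast and endothelial lists were mixed between GFP and MHC. Over all genes, 15.6% were higher and 16.4% lower in GFP than in MHC. Of 7 Purkinje and conduction markers, 4 were higher and 3 lower in GFP. These markers include the reporter gene Cntn2 and summed to 23372 in GFP, against 3724 in MHC and 3102 in NEG. Of 7 fibroblast and matrix markers, 2 were higher and 5 lower in GFP, and the collagen genes Col1a1 and Col1a2 among the 5 took 2.0% of reads in GFP, against 8.53% in MHC and 8.86% in NEG. Of 4 measured endothelial markers, 1 was higher and 2 lower in GFP, with list sums of 649 in GFP, against 2698 in MHC and 1689 in NEG. Of 5 measured neuronal markers, 1 was higher and 0 lower, with list sums of 259 in GFP, against 263 in MHC and 563 in NEG. In bulk RNA, fewer cells of a type and less RNA per cell cannot be told apart.

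Most oxidative phosphorylation genes were highest in MHC and differed by less than 2-fold. The members took 0.542% of the recovered reads in GFP, against 0.631% in MHC and 0.459% in NEG. Of the 82 members, 80 were measured (a mean value of 10 or more over the 3 libraries), and Cox7b2 and Cox8c were not. MHC was the highest library for 59 of the 80, GFP for 19 and NEG for 2, against 30.9%, 43.6% and 25.5% of 16036 measured protein-coding genes. NEG was the lowest library for 55, GFP for 23 and MHC for 2, against 27.1%, 39.2% and 33.8%. These shares depend on the scaling between libraries. Scaled by total reads in place of the deposited size factors, MHC was highest for 43 members, GFP for 36 and NEG for 1, against 26.5%, 52.9% and 20.7% of protein-coding genes.

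In GFP against MHC, 0 members were higher and 6 were lower, beside 15.6% and 16.4% of all genes called in those directions. The 6 were Cox4i2, Ndufa4l2, Cox6a2, Cox8b, Cox7a1 and Cox5a, of which the first 5 are isoforms restricted to some tissues or conditions. The median log2 ratio of the 80 members was −0.21, against 0.05 for protein-coding genes, and 19 members lay above 0, beside 52% of protein-coding genes. At 1.5-fold, 4 members were higher and 15 lower in GFP, beside 26.2% and 26.1% of all genes. With scaling by total reads the median of all genes moved by 0.17 and that of protein-coding genes was 0.21. The members' median was then −0.04, so that 36 members lay above 0. Set against the median of all genes, the members' median was −0.20 with the deposited scaling and −0.21 with scaling by total reads. In GFP against NEG, 3 members were higher (Ndufa4, Cox7a1 and Uqcr11) and 4 were lower (Cox4i2, Ndufa4l2, Cox8b and Cox6a2), beside 14.1% and 15% of all genes. At 1.5-fold these counts were 8 and 4, beside 23.5% and 23.6%. The median log2 ratio there was 0.14, against 0.04 for protein-coding genes, and 57 members lay above 0, beside 52.4%. With scaling by total reads the median was 0.31, that of protein-coding genes 0.21 and that of all genes 0.17, and 71 members lay above 0. The share of protein-coding genes above 0 was not recomputed with that scaling.

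In MHC against NEG, 2 members were higher (Cox6a2 and Cox7a1) and 0 were lower, beside 5.35% and 5.21% of all genes. At 1.5-fold, 19 were higher and 1 was lower, beside 12.2% and 13% of all genes. Smaller differences ran mostly one way. The log2 ratio was above 0 for 76 of the 80 measured members, against 49.2% of protein-coding genes, and also for 76 with scaling by total reads and 77 with TMM factors. The median was 0.42, against −0.01 for protein-coding genes, and the quartiles of the members lay at 0.22 and 0.57. The 4 below 0 were Ndufa4l2, Cox6a1, Uqcrq and Ndufb2. All 12 heart muscle markers, Myh6 among them, were higher in MHC than in NEG in the same comparison. The part of the share of heart muscle cells in the members' ratios was not tested.

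**Figure D1:**
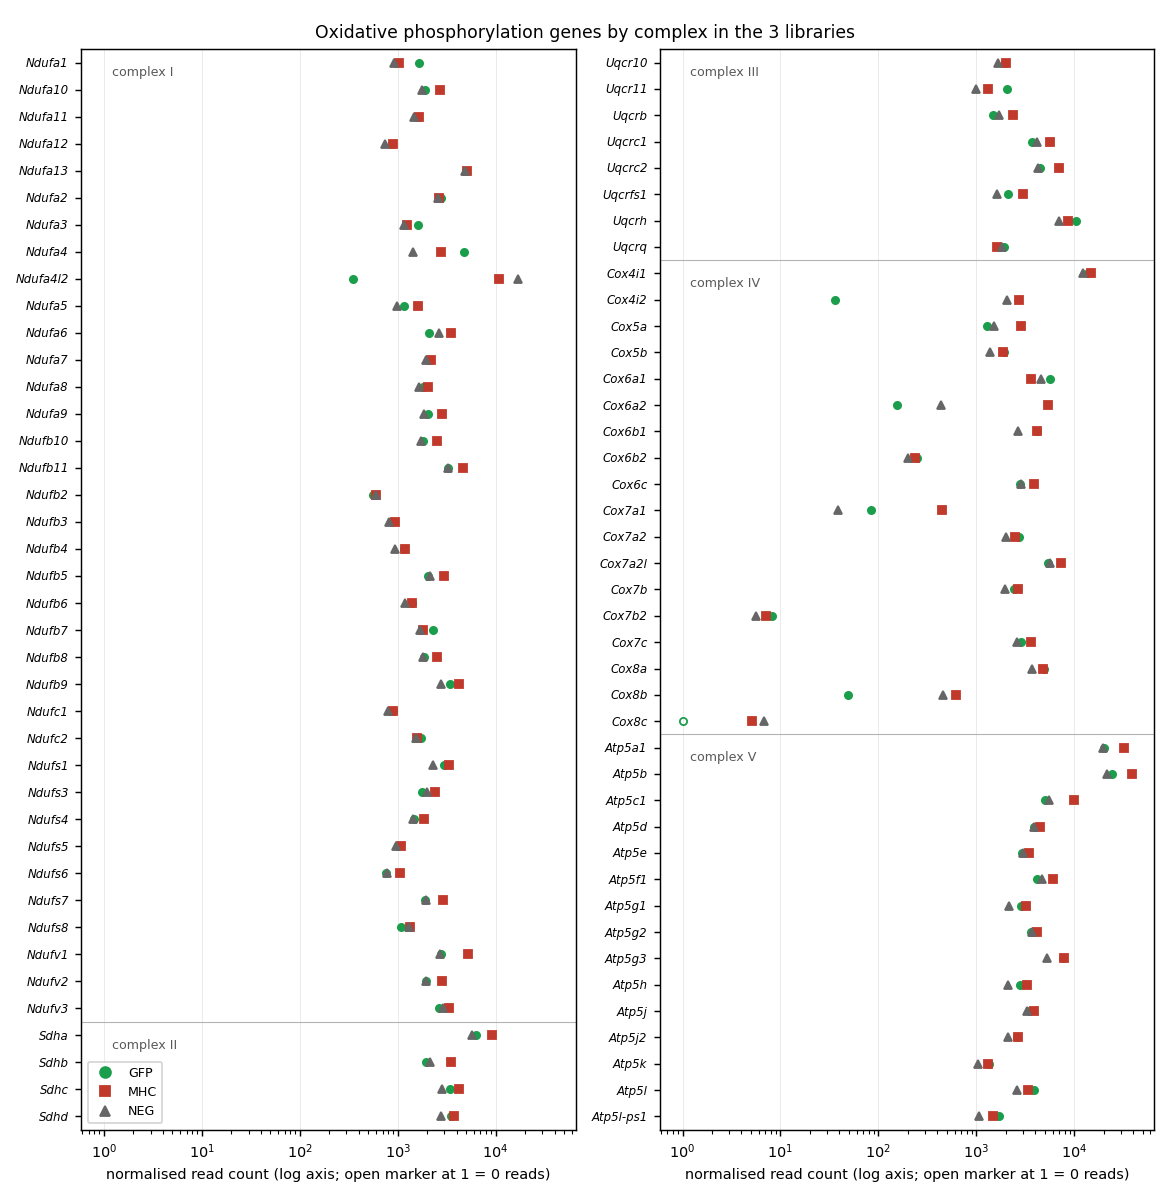
Normalised read count of the members (log axis), 1 of complex I left out, in GFP (circles), MHC (squares) and NEG (triangles), grouped by complex. Most members sit close together in the 3 libraries, whereas Ndufa4l2, Cox4i2 and Cox8b are far lower in GFP and Cox6a2 and Cox7a1 are highest in MHC; the open marker for Cox8c stands for 0 reads in GFP.

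**Figure D2:**
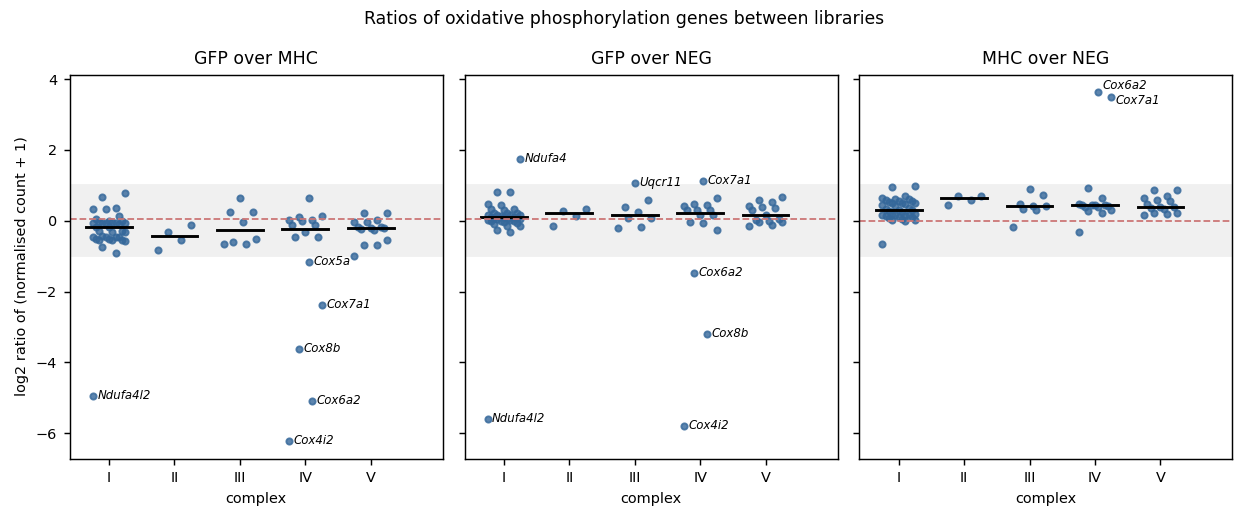
Log2 ratio of (normalised count + 1) for the 80 measured members in each pair of libraries, with 1 point per gene, black bars at the median of each complex, a dashed line at the median of measured protein-coding genes and a grey band for differences under 2-fold. The points outside the band are named, and in MHC over NEG nearly all members lie above the dashed line.

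The muscle isoforms of cytochrome oxidase were lower in GFP than in MHC, while their general partners stayed within 2-fold. Cox6a2, the heart and skeletal muscle form of subunit 6A, had 156 in GFP, against 5390 in MHC and 433 in NEG (ENSMUSG00000030785, chr7:128205436-128206366, mm10). MHC stood far above the other libraries, and Cox6a2 was 34.5-fold (95% limits 29.6 and 40.4) lower in GFP than in MHC and 12.5-fold (95% limits 11.2 and 13.9) higher in MHC than in NEG. Cox6a2 overlaps the integrin gene Itgad, which had 766 in GFP, against 5877 in MHC and 888 in NEG, so the counts of both genes are uncertain. Its general partner Cox6a1 had 5669 in GFP, against 3643 in MHC and 4578 in NEG. Cox6a1 was thus lowest in MHC, where the muscle form was highest, with a log2 ratio of −0.33 for MHC against NEG. By level per kilobase of exon, Cox6a2 made up 2.77% of the pair in GFP, 60.4% in MHC and 8.89% in NEG. As a share of the pair's reads these were 2.68% (95% limits 2.3 and 3.11) in GFP, against 59.7% (58.6 to 60.7) in MHC and 8.63% (7.82 to 9.5) in NEG.

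Cox7a1, the muscle form of subunit 7A, had 84.1 in GFP, against 444 in MHC and 38.4 in NEG (ENSMUSG00000074218, chr7:30184171-30186028). It was 5.28-fold lower in GFP than in MHC, 11.6-fold (95% limits 8.14 and 16.9) higher in MHC than in NEG, and 2.19-fold (95% limits 1.46 and 3.35) higher in GFP than in NEG. The reads behind it were 92 (GFP), 438 (MHC) and 34 (NEG). The general form Cox7a2 had 2697 in GFP, against 2457 in MHC and 1989 in NEG. Per kilobase, Cox7a1 was 5.21% of the pair in GFP, 24.2% in MHC and 3.29% in NEG, so the general form led in all 3 libraries.

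Cox8b, the muscle form of subunit 8, did not follow the same order. It had 49.4 in GFP, against 622 in MHC and 460 in NEG (ENSMUSG00000025488, chr7:140898943-140900446). It was 12.6-fold (95% limits 9.53 and 17.0) lower in GFP than in MHC and 9.31-fold (95% limits 7.0 and 12.6) lower in GFP than in NEG, whereas MHC was only 1.35-fold (95% limits 1.19 and 1.54) above NEG. The general form Cox8a had 4893 in GFP, against 4822 in MHC and 3662 in NEG. Per kilobase, Cox8b was 1.70% of the pair in GFP, 18.2% in MHC and 17.8% in NEG. The log2 difference of the isoform ratio between MHC and NEG was 3.97 for Cox6a2 over Cox6a1, 3.19 for Cox7a1 over Cox7a2 and 0.04 for Cox8b over Cox8a.

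**Figure D3:**
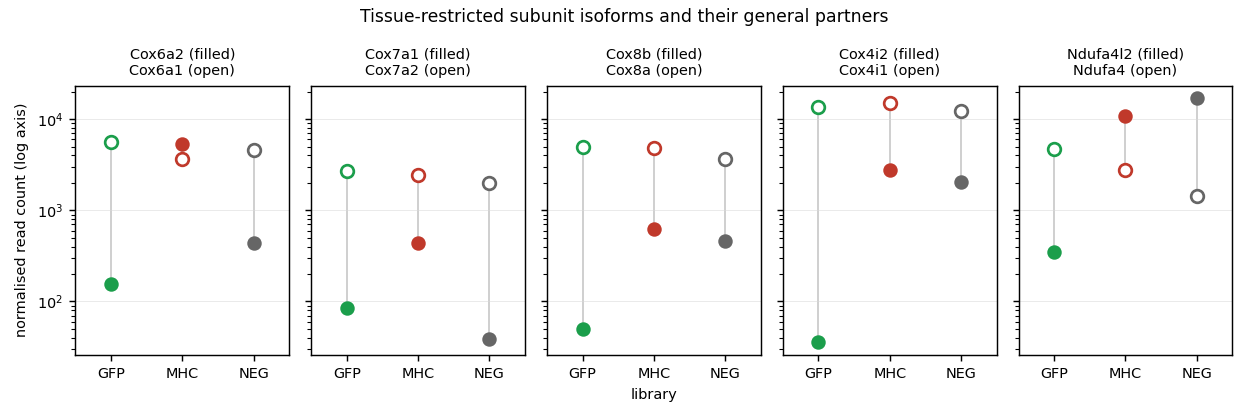
Normalised read count (log axis) of 5 restricted isoforms (filled) and their general partners (open) in GFP, MHC and NEG, joined by a grey line for each library. The filled point exceeds the open one for Cox6a2 in MHC and for Ndufa4l2 in MHC and NEG, and the filled points of Cox4i2 and Cox8b are far lower in GFP than in the other libraries.

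The 3 muscle isoforms are also found in skeletal muscle, and Cox7a1 and Cox8b in brown fat, so the markers of both were set beside them. Of 9 skeletal muscle markers 7 were measured, 3 lower and 2 higher in GFP than in MHC, beside 16.4% and 15.6% of all genes. The defining factors Myod1 and Myog were at or near 0. Myod1 had 2.74 in GFP, against 0 in MHC and 3.39 in NEG, and Myog 5.48 in GFP, against 7.09 in MHC and 9.04 in NEG. Of 6 brown adipocyte markers 3 were measured, all lower in GFP than in MHC, beside the same 16.4% of all genes. Ucp1, which defines brown fat, had 2.74 in GFP, against 2.03 in MHC and 1.13 in NEG. The skeletal list summed to 9135 in GFP, against 6259 in MHC and 3279 in NEG, and the brown adipocyte list to 731 in GFP, against 3065 in MHC and 2299 in NEG. Their part in the values of the muscle isoforms was not tested.

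The promoters of the muscle and general forms of subunits 7A and 8 are shown because these pairs differed between the libraries and both partners had a RefSeq promoter. Cox6a2, of the pair with the largest difference, was not matched. RefSeq promoters (GRCm38.p6, the build mm10) were matched for 66 of the 82 members. Printed are the 250 bases before the start of each gene, on the gene's strand, with the E-box letters CANNTG in capitals (the core bound by muscle helix-loop-helix factors, among many others). Cox7a1 is at chr7:30183921-30184170, plus strand, Cox7a2 at chr9:79759854-79760103, minus strand, Cox8b at chr7:140900447-140900696, minus strand, and Cox8a at chr19:7217617-7217866, minus strand.
Cox7a1: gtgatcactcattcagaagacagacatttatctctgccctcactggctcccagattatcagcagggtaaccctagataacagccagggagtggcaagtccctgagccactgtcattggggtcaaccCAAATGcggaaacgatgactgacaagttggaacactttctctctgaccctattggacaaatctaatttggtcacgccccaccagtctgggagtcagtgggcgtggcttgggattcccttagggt
Cox7a2: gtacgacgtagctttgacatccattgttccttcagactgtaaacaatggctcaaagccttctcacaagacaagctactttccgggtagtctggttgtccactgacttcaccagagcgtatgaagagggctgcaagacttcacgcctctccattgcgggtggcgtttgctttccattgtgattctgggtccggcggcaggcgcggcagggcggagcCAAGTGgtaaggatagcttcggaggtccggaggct
Cox8b: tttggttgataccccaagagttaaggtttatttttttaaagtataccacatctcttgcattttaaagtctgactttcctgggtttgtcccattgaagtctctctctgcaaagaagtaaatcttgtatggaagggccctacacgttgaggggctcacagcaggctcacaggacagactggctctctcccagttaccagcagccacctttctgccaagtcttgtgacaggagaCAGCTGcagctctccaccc
Cox8a: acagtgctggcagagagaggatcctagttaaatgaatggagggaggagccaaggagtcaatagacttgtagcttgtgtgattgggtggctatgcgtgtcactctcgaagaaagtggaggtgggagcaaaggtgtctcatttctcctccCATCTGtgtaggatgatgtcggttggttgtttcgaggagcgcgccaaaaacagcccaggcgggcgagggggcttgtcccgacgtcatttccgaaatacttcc
Each of the 4 windows held 1 E-box, the muscle and the general forms alike, and 66.0% of 27025 promoters of this length held at least 1. None of the 66 member promoters held the MEF2 letters TAAAAATA, which occur in 2.48% of all promoters. The consensus motif of NRF1, a regulator of respiratory genes, was in 4 of the 66 (6.06%), those of Cox6a1, Ndufa11, Atp5g2 and Atp5k, against 0.781% of all. CCGGAAGT, the core of GABPA sites, was in 3 of the 66 (4.55%), against 2.93% of all. TCAAGGTCA, bound by oestrogen-related receptors, was in 1 of the 66 (1.52%), that of Atp5g3, against 0.366% of all. ACGTG, the core of hypoxia response elements, was in 14 of the 66 (21.2%), against 16.6% of all. Motifs were read on both strands, without regard to overlap, and a match is a run of letters and not a bound site. The median share of G and C bases was 56.2% in member promoters and 52% in all. The motif shares were not adjusted for it.

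Cox4i2 had the lowest ratio of GFP to MHC of all members, and Ndufa4l2 the lowest of complex I. Cox4i2 is an alternative form of cytochrome oxidase subunit 4 known from lung and from hypoxic cells. It had 35.6 in GFP, against 2740 in MHC and 2055 in NEG (ENSMUSG00000009876, chr2:152754173-152765037). It was 76.9-fold (95% limits 56.1 and 108) lower in GFP than in MHC and 57.6-fold (95% limits 42.0 and 81.3) lower in GFP than in NEG. The general form Cox4i1 had 13663 in GFP, against 14864 in MHC and 12326 in NEG, and overlaps another gene, so its count is uncertain. Per kilobase, Cox4i2 was 0.511% of the pair in GFP, 26.6% in MHC and 24.7% in NEG.

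Ndufa4l2, a hypoxia-inducible relative of Ndufa4, had 348 in GFP, against 10778 in MHC and 17103 in NEG (ENSMUSG00000040280, chr10:127514939-127517152). It was 30.9-fold (95% limits 27.9 and 34.4) lower in GFP than in MHC and 49.1-fold (95% limits 44.4 and 54.5) lower in GFP than in NEG. Per kilobase it was the highest of the 82 members in NEG and ranked 2 in MHC but 74 in GFP. Ndufa4, now regarded as a subunit of complex IV in spite of its name, ran the other way, with a value of 4739 in GFP, against 2761 in MHC and 1424 in NEG. Ndufa4 was 3.33-fold (95% limits 3.13 and 3.54) higher in GFP than in NEG and 1.72-fold (95% limits 1.64 and 1.80) above MHC. Per kilobase, Ndufa4l2 was 8.48% of the pair in GFP, 83.1% in MHC and 93.8% in NEG.

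Other hypoxia-related genes and smooth muscle markers were set beside Cox4i2 and Ndufa4l2. Higd1a, a hypoxia-induced respiratory supercomplex factor, had 586 in GFP, against 4298 in MHC and 6489 in NEG. Hif1a encodes the oxygen-regulated factor itself and is controlled mainly at the protein level. It had 8144 in GFP, against 6850 in MHC and 7807 in NEG, and overlaps another gene. Of 5 smooth muscle markers, 4 were lower in GFP than in MHC and in NEG and 1, Mylk, was higher. Of all genes, 16.4% were lower and 15.6% higher in GFP than in MHC, and 15% and 14.1% than in NEG. The 5 markers summed to 44284 in GFP, against 61784 in MHC and 59040 in NEG. The smooth muscle actin gene Acta2 had 2363 in GFP, against 40276 in MHC and 38419 in NEG. The part of oxygen supply and of smooth muscle cells in these differences was not tested.

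Of the remaining restricted isoforms, Cox7b2 and Cox8c had few reads and Cox6b2 more. Cox6b2, known from testis, had 250 in GFP, against 234 in MHC and 201 in NEG, and its level of 225 per kilobase in GFP, against 211 in MHC and 181 in NEG, lay above the median of measured protein-coding genes in each. Its general partner Cox6b1 had 4132 in GFP, against 4137 in MHC and 2669 in NEG. Cox7b2 had 9 reads in GFP, against 7 in MHC and 5 in NEG. Cox8c had 0 reads in GFP, against 5 in MHC and 6 in NEG. A count of 0 in GFP allows a value of up to 2.74 there.

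Complex I subunits stayed within 2-fold between the libraries, apart from Ndufa4l2 and Ndufa4, and its core subunits had a lower median ratio of GFP to MHC than its accessory subunits, with overlapping ranges. The 7 core subunits, most of which carry the flavin or iron-sulphur centres, had a median log2 ratio of −0.44 for GFP against MHC and 0.53 for MHC against NEG. The 28 accessory subunits had medians of −0.08 and 0.25. Ndufv1, the flavin subunit, had 2760 in GFP, against 5238 in MHC and 2678 in NEG, a ratio of MHC to GFP of 1.90 (95% limits 1.81 and 1.98). Ndufa6 had 2102 in GFP, against 3495 in MHC and 2631 in NEG. Among the accessory subunits, Ndufa1 had 1643 in GFP, against 1034 in MHC and 927 in NEG, and Ndufa3 had 1612 in GFP, against 1249 in MHC and 1167 in NEG. Ndufb2, with 558 in GFP, against 595 in MHC and 599 in NEG, overlaps other genes.

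All 4 genes of complex II, the succinate dehydrogenase that also serves the citric acid cycle, were highest in MHC with the deposited scaling. Sdhd had 3796 reads in GFP, the library with fewer total reads, against 3741 in MHC. Scaled by total reads, Sdhd was thus higher in GFP than in MHC. Sdha, the flavoprotein, had 6358 in GFP, against 9293 in MHC and 5751 in NEG. Sdhb, the iron-sulphur subunit, had 1954 in GFP, against 3482 in MHC and 2147 in NEG, a ratio of MHC to GFP of 1.78 (95% limits 1.69 and 1.88). The membrane anchors varied less between GFP and MHC. Sdhc had 3383 in GFP, against 4185 in MHC and 2815 in NEG, and Sdhd had 3470 in GFP, against 3789 in MHC and 2767 in NEG. The median log2 ratio of the 4 genes was −0.43 for GFP against MHC and 0.63 for MHC against NEG.

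The subunits of complex III differed in which library was highest. The core protein genes Uqcrc1 and Uqcrc2 were highest in MHC. Uqcrc2 had 4459 in GFP, against 7050 in MHC and 4236 in NEG, and Uqcrc1 had 3714 in GFP, against 5637 in MHC and 4208 in NEG. The Rieske iron-sulphur gene Uqcrfs1 had 2103 in GFP, against 2987 in MHC and 1617 in NEG, and Uqcrb, which shares 25.4% of its 50-base runs with genes elsewhere, had 1491 in GFP, against 2368 in MHC and 1715 in NEG. The small subunit genes Uqcr11, Uqcrh and Uqcrq were highest in GFP. Uqcr11 had 2076 in GFP, against 1328 in MHC and 992 in NEG, 2.09-fold (95% limits 1.93 and 2.27) higher in GFP than in NEG. Uqcrh, the hinge protein gene, had 10299 in GFP, against 8662 in MHC and 6915 in NEG, and overlaps a pseudogene. Uqcrq had 1917 in GFP, against 1617 in MHC and 1812 in NEG, and Uqcr10 lay within 1.03-fold between GFP and MHC.

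Among the general subunits sorted into complex IV by symbol, which leaves out Ndufa4, Cox5a was the 1 gene past 2-fold. It had 1272 in GFP, against 2878 in MHC and 1521 in NEG, 2.26-fold (95% limits 2.12 and 2.41) lower in GFP than in MHC. Cox5a overlaps a lincRNA. Its partner subunit Cox5b had 1911 in GFP, against 1878 in MHC and 1388 in NEG, within 2-fold throughout. Cox7a2l, which joins complexes III and IV into a supercomplex, had 5418 in GFP, against 7404 in MHC and 5628 in NEG. Cox6c, Cox7b and Cox7c had log2 ratios of −0.47, −0.13 and −0.31 for GFP against MHC, and Cox6c overlaps another gene.

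In complex V the alpha, beta and gamma genes of the ATP synthase head had the lowest ratios of GFP to MHC, whereas the other 2 head genes lay within the range of the membrane part. Atp5b, the catalytic beta subunit, had 24035 in GFP, against 38783 in MHC and 21334 in NEG. Atp5a1, the alpha subunit, had 19899 in GFP, against 31981 in MHC and 19764 in NEG. The rotor stalk gene Atp5c1 came closest to 2-fold, with 5060 in GFP, against 10052 in MHC and 5513 in NEG, a ratio of MHC to GFP of 1.99 (95% limits 1.92 and 2.05). The other head genes Atp5d and Atp5e had log2 ratios of −0.20 and −0.25 for GFP against MHC, above the −0.55 of the stalk gene Atp5f1. Atp5d overlaps another gene. In MHC against NEG, Atp5d and Atp5e had 0.20 and 0.22. The 5 F1 subunits had a median log2 ratio of −0.68 for GFP against MHC, 0.00 for GFP against NEG and 0.69 for MHC against NEG. The 9 Fo and stalk subunits, Atp5l-ps1 left aside, had medians of −0.17, 0.37 and 0.38 for the same 3 comparisons. The Atp5g genes encode the same mature c-ring protein. Atp5g1 had 2852 in GFP, against 3222 in MHC and 2136 in NEG, Atp5g2 (38.3% of its 50-base runs found elsewhere) had 3615 in GFP, against 4179 in MHC and 3712 in NEG, and Atp5g3 had 7625 in GFP, against 7820 in MHC and 5265 in NEG. At the other end, Atp5l had 3910 in GFP, against 3389 in MHC and 2598 in NEG, Atp5k had 1340 in GFP, against 1316 in MHC and 1036 in NEG, and Atp5l-ps1, with 55.1% of its 50-base runs found elsewhere, had 1720 in GFP, against 1477 in MHC and 1073 in NEG.

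Levels were compared between genes per kilobase of annotated exon. The highest members in GFP were Cox4i1 at 8815, Uqcrh at 8326 and Cox6a1 at 8076 per kilobase. In MHC they were Atp5a1 at 10201, Ndufa4l2 at 9843 and Cox4i1 at 9590. In NEG they were Ndufa4l2 at 15619, Cox4i1 at 7952 and Cox6a1 at 6522. The median level of complex V members was 2000 per kilobase in GFP, against 2235 in MHC and 1697 in NEG, and that of complex I members was 1114 in GFP, against 1322 in MHC and 1031 in NEG. Measured protein-coding genes had a median of 179 per kilobase in GFP, against 172 in MHC and 174 in NEG.

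Other mitochondrial genes were set beside the members, from lists chosen with earlier results of these data known. The 19 citric acid cycle and pyruvate genes had a median log2 ratio of −0.57 for GFP against MHC and 0.63 for MHC against NEG. Of these 19, 2 were lower and 1 was higher in GFP than in MHC, beside 16.4% and 15.6% of all genes. Idh3a, a subunit of the NAD-dependent isocitrate dehydrogenase, had 1286 in GFP, against 2901 in MHC and 1296 in NEG. Suclg2, the GTP-forming subunit of succinyl-CoA ligase, was the higher one, with 6082 in GFP, against 1359 in MHC and 1508 in NEG. The 15 genes of carriers and mitochondrial membranes had medians of −0.09 for GFP against MHC and 0.31 for MHC against NEG. In MHC against NEG, 12 lay above 0 and 3 below, beside 49.2% of protein-coding genes above 0. Of these 15, 0 were called in GFP against MHC and, beside 5.35% of all genes, 1 was higher in MHC than in NEG. This was Slc25a4, the heart and muscle adenine nucleotide translocator, with 21590 in GFP, against 41577 in MHC and 19900 in NEG.

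The mobile electron carrier and the assembly factors behaved differently. Cycs, the cytochrome c gene, had 1279 in GFP, against 3097 in MHC and 1323 in NEG, and Cyc1, the cytochrome c1 subunit of complex III, had 2003 in GFP, against 4208 in MHC and 2634 in NEG. Both were lower in GFP than in MHC, the only 2 of the 7 respiratory chain genes outside the naming rule to be called there. Of all genes, 16.4% were lower in that comparison. Assembly factors had medians near 0 in MHC against NEG, with 0.03 over 14 genes for complex I, 0.02 over 10 for complexes II, III and V and −0.01 over 20 for complex IV. In that comparison 0 assembly factors were called, beside 5.35% of all genes higher and 5.21% lower. In GFP against MHC, Ndufaf6 (80.4 in GFP, against 239 in MHC and 212 in NEG) and Higd1a were the 2 lower ones. The mitochondrial ribosome list had a median of 0.03 over 17 genes in MHC against NEG, where 0 were called. Cytosolic ribosomal genes, listed for contrast, had a median of −0.55 over 16 genes in GFP against MHC and 0.06 in MHC against NEG.

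Among 18 regulators of mitochondrial genes, 4 were at least 2-fold lower in GFP than in MHC and 0 higher, beside 16.4% and 15.6% of all genes. With the deposited scaling, their log2 ratio lay above 0 for 4 and below 0 for 14, beside 52% of protein-coding genes above 0. Ppargc1a, the coactivator that drives mitochondrial biogenesis, had 98.7 in GFP, against 873 in MHC and 210 in NEG. Esrrg, an oestrogen-related receptor of heart muscle, had 44.8 in GFP, against 213 in MHC and 38.4 in NEG. Mef2c, a muscle transcription factor, had 1093 in GFP, against 5042 in MHC and 10718 in NEG, and was thus highest outside the mCherry-positive cells. In MHC against NEG, 4 regulators were higher and 1, Mef2c, was lower, beside 5.35% and 5.21% of all genes. Among the 4 was Ppargc1b, with 185 in GFP, against 291 in MHC and 103 in NEG. The mitochondrial transcription factor gene Tfam was within 2-fold, with 856 in GFP, against 893 in MHC and 836 in NEG.

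**Figure D4:**
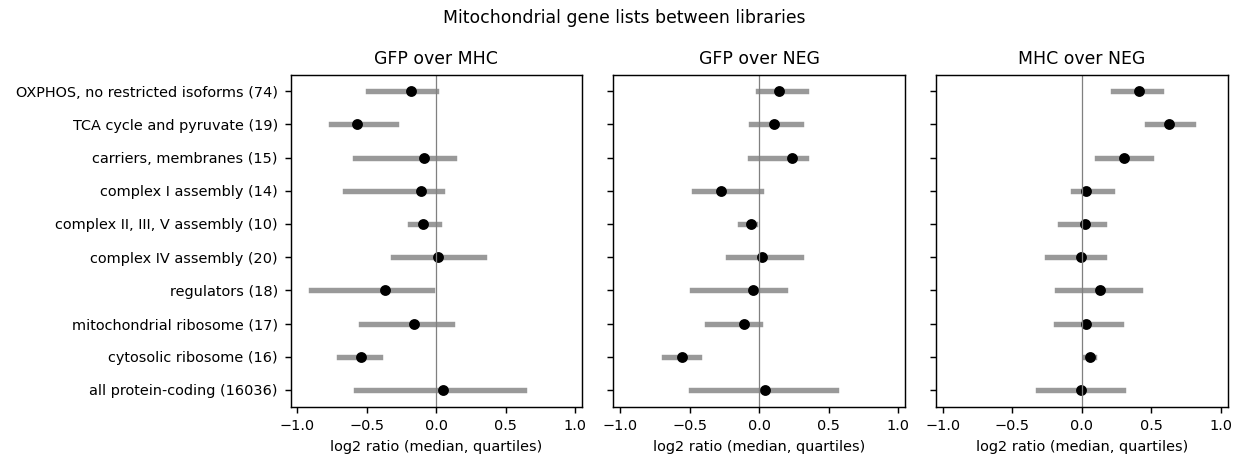
Median (points) and quartiles (bars) of the log2 ratios of measured genes in each list for the 3 pairs of libraries, with the number of genes in brackets. In MHC over NEG, oxidative phosphorylation genes (0.42), citric acid cycle genes (0.63), carriers and membranes (0.31) and regulators (0.13) lie above 0. The assembly factor and ribosome lists lie within 0.06 of 0 there.

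Shorter members had higher ratios of GFP to MHC. The 74 measured members that are not restricted isoforms were split at their median exon length of 1631 bases, a split chosen after their values were seen. The 37 shorter ones had a median log2 ratio of −0.05 for GFP against MHC and the 37 longer ones −0.44. Spearman's rho between exon length and the ratio was −0.44 over these 74 genes, which share their libraries and are not independent. Among 7567 other protein-coding genes of the same length range with a mean value of 500 or more, rho was 0.02, and the medians were −0.07 for the 655 at or under 1631 bases and 0.07 for the longer ones. In MHC against NEG the members' medians were 0.34 for the shorter and 0.48 for the longer genes.

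**Figure D5:**
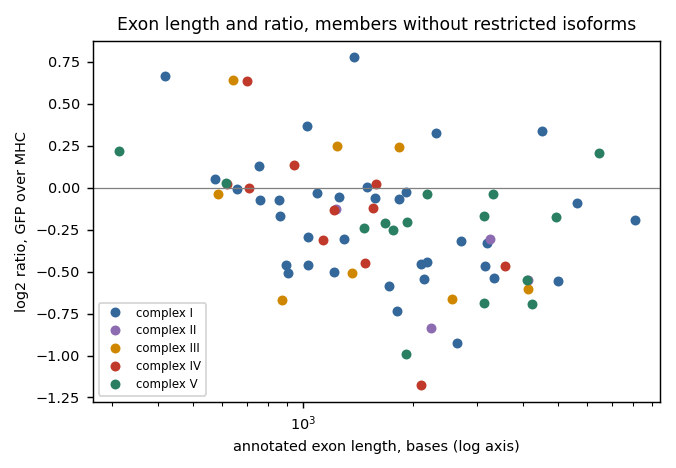
Log2 ratio of GFP over MHC against annotated exon length (log axis) for the 74 measured members without restricted isoforms, coloured by complex. Points above 0 lie mostly at short lengths, where Ndufa1, Uqcr11 and Cox6a1 are found, while Cox5a, Atp5c1 and Ndufv1 are the lowest.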

How the data were processed

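RNA of 3 sorted populations, 1 library each, was analysed from the authors' deposited table. Per the labels' protocols, a kit for small samples gave the RNA, and TruSeq libraries were read from 1 end. FastQC 0.11.2, STAR 2.3.0e, bedtools 2.17.0, DESeq2 1.2.10 and build mm10 are named, per the submitters' processing notes, without their roles. The deposited values have the unit signal, read counts divided by 1 size factor per library, and no aligner setting for reads with several matches is given in the sources used here. Dividing by the value of 1 read (0.914 in GFP, 1.01 in MHC, 1.13 in NEG) gave whole numbers for 100% of values within 0.01, the recovered reads. With 1 library per group no residual degrees of freedom remain, so no count test was run on them and no genes are called by one.

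Ratios are of log2(value + 1), which understates differences of low genes. For 15 of 82 members, a gene of overlapping position had a read count of 25% or more of the member's count. Such members are named as overlapping, since no strand separation is stated. Reads counted for both genes were not measured. Exon lengths came from GENCODE M21, where all 82 members were found by identifier, 49 of them at the same start and end. Coordinates printed are the table's. The computation was tested on simulated data. Alternatives were other pseudocounts, thresholds, minima, member sets and scalings (edgeR 4.0.16 TMM factors). Named were the isoform pairs, Cox7a2l, the Sdh and Atp5g genes, the 3 highest and 3 lowest ratios of GFP against MHC in each complex and, from each of 18 gene lists (207 entries), the 2 highest means and the extreme ratios; other genes were chosen after their values were seen. The members and lists were chosen with earlier results of these data known. Nothing separates the sort gates, the culture and the library preparation of a population. Results for 2 of the genes are not reported here.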

Additional observations from a re-analysis of the deposited data

How the results depend on the processing

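No paired analysis was possible because each population had 1 library, and for the same reason no library could be left out. Of 78 values recomputed for the counts of members and their medians, 70 were within 1.5 times the reported count or within 0.1 of the reported median, and 0 medians changed sign. At 1.5-fold, 4 members were higher and 15 lower in GFP than in MHC, 8 were higher in GFP than in NEG, and 19 were higher and 1 lower in MHC than in NEG, beside 26.2%, 26.1%, 23.5%, 12.2% and 13% of all genes. Scaled by total reads, the median was −0.0373 for GFP against MHC and 0.31 for GFP against NEG, where the median of all genes moved to 0.17 in both. Without members that overlap others, 1 member (Cox7a1) was higher in MHC than in NEG, since Cox6a2 is left out. With a pseudocount of 10 or a minimum value of 100, 2 members were higher in GFP than in NEG, since Cox7a1 was no longer called. Leaving out the 3 members with near-identical copies elsewhere was chosen after seeing the data. Of the 10 highest members per kilobase of exon, 6 in MHC and 6 in NEG stayed so per kilobase of gene span. Counts under 100 reads limit Cox7a1 in GFP and NEG, Cox8b and Cox4i2 in GFP, and Cox7b2 and Cox8c in each library.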

Other observations

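Near-identical copies held values close to those of some members. Over transcripts of GENCODE M21, 40 of the 82 members shared no run of 50 bases with a gene elsewhere, and 3 shared at least 25% of theirs, Atp5l-ps1 with 55.1%, Atp5g2 with 38.3% and Uqcrb with 25.4%. Atp5l-ps1, listed as protein-coding in the table, shared 46.4% of its 50-base runs with Atp5l, and its value was below that of Atp5l in each library. The processed pseudogene Gm10221 shared 45.2% with Atp5l-ps1 and had 4682 in GFP, against 3867 in MHC and 2925 in NEG, above Atp5l itself in each library. For Atp5g2, the pseudogene Gm10231 had 5484 in GFP, against 6530 in MHC and 5919 in NEG, also above the member. How the counting treated reads with several matches was not tested. The muscle isoforms Cox6a2, Cox7a1 and Cox8b and the genes Cox4i2 and Ndufa4l2 shared no such run with a gene elsewhere.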
